A study of Mus musculus with 4 samples.

Results

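The genes described are 10 C-type lectins of mouse myeloid cells: Cd209a, Cd209b, Cd209c, Cd209d, Cd209e, Clec10a, Mgl2, Clec4a2, Clec12a and Clec9a. They were taken by symbol from the 19938 genes that had a probe set annotated to exactly 1 gene symbol, and all 10 were measured, each by 1 probe set. Their RNA was measured in plasmacytoid dendritic cells (pDCs) sorted from the spleens of Flt3 KO mice (2 samples) and wild-type (WT) mice (2 samples), with 1 whole-transcript GeneChip array per sample. The mice were at steady state, and the labels call the samples of a genotype biological replicates. The allele behind the Flt3 KO label, the strain, sex and age of the mice, and whether a sample pooled animals are not stated in the labels. The spread between these samples may therefore be partly technical. The SE given with a difference is limma's moderated SE, which combines the spread of the gene with that of the other genes. Flt3 KO and WT were the comparison in view when these lectins were chosen, so their differences are given as a description with SE and with no p-value.

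C-type lectin receptors are membrane proteins of antigen-presenting cells whose outer domain, in its classical form, binds sugars with the help of calcium. Some receptors of the DC-SIGN group, which the Cd209 genes encode in mice, bind mannose- and fucose-bearing glycans. The macrophage galactose-type lectins bind galactose or N-acetylgalactosamine. Others carry an inhibitory motif in the cytoplasm or couple to the kinase Syk, and they set how a cell responds to microbes, dead cells or crystals.

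The Cd209 genes lie beside each other on chromosome 8, and promoter sequence for 9 of the 10 genes was found in RefSeq (GRCm38.p6), all but Clec10a. The stretches below are shown because 4 of the 5 Cd209 promoters share a pyrimidine-rich block at different distances from the annotated start. All are written 5′ to 3′ on the strand of the gene, with each CNCTTCC in capitals.
Cd209e: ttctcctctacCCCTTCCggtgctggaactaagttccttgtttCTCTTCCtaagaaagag
Cd209d: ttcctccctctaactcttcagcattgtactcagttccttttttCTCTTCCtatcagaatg
Cd209a: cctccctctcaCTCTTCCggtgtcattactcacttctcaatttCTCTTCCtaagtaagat
Cd209b: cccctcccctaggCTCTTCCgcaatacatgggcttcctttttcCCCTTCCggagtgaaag
The stretches are chr8:3854352-3854411 for Cd209e, chr8:3878550-3878609 for Cd209d, chr8:3748974-3749033 for Cd209a and chr8:3926866-3926925 for Cd209b, all on the minus strand.

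Counted from the annotated start, the block TTNCNCTTC began at base −85 in Cd209e, −70 in Cd209d, −44 in Cd209b and −9 in Cd209a, where it ended at the base before the start. It was picked after the sequences had been read, and it was searched on both strands of the 300 bases of each RefSeq promoter entry (250 before and 50 after the start). It occurred in 7.03% of the 32851 entries. The Cd209c entry matched only on the opposite strand, between bases −184 and −176, and is not shown. The shorter letters CTTCCT, the core bound by factors of the ETS family, overlap the block where CT follows it, and occurred in 35.4% of entries and in 6 of the 9 lectin entries. Over the 250 bases before the start, aligned promoters were most alike for Cd209b and Cd209d (58.0% identical) and for Cd209d and Cd209e (57.5%), while the other 4 pairs among Cd209a, Cd209b, Cd209d and Cd209e, at 48.2% to 50.9%, lay within the range of the remaining lectin pairs, 45.5% to 51.0%.

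Clec12a, the lectin with the largest negative difference, had CTTCCT in its reverse form, AGGAAG, at bases −73 and −60. The reverse form also began at base −47 in Cd209d, whose difference was positive, and at −250 in Mgl2. The Clec12a stretch is shown here from chr6:129350151-129350209, plus strand, with AGGAAG in capitals.
Clec12a: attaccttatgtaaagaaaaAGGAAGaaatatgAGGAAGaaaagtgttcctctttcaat
With both strands searched, the interferon-response letters GAAANNGAA occurred in 1 of the 9 lectin entries, that of Clec9a (8.56% of all entries), and the STAT-type letters TTCNNNGAA in 1, that of Clec4a2 (8.3% of all entries). The E-box letters CANNTG occurred in 7 of the 9 and in 72.3% of all entries. These matches describe letters in a window and are not evidence of binding.

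The arrays were on a closely shared scale, with a median probe-set intensity of 57.2 and 56.2 in the Flt3 KO arrays and 55.1 and 55.3 in the WT arrays. The Flt3 probe set had log2 intensities of 8.46 and 8.61 in the Flt3 KO arrays, against 10.71 and 10.77 in the WT arrays. Siglech and Bst2, which mark pDCs, were bright everywhere, Siglech at 12.51 and 12.53 in Flt3 KO and 12.65 and 12.64 in WT, Bst2 at 12.82 and 12.87 in Flt3 KO and 12.93 and 12.92 in WT. Across all genes, limma placed 476 (2.39%) past an adjusted p of 0.05, 215 of them higher and 261 lower in Flt3 KO. That split moved with scaling, to 217 higher and 452 lower with each array centred on its median and to 293 higher and 259 lower with quantile normalization. Without Flt3 KO replicate 1, Flt3 KO replicate 2, WT replicate 1 or WT replicate 2 the count was 54, 2, 0 or 0, in fits with 1 residual degree of freedom. Of 22 genes past the threshold in the gene lists used below, Flt3 among them and the 10 lectins aside, 5, 1, 0 and 0 stayed past it in these fits, in the same order. The lectins were chosen in this comparison, so no count of lectins kept in these fits is read as support.

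The Cd209 genes held the larger positive differences among the lectins. Cd209e, Cd209c, Cd209d and Cd209a each had higher values in both Flt3 KO arrays than in either WT array, by 0.24 to 1.41 on the log2 scale, and the signal of Cd209b was at the same low level in both genotypes. Clec12a, Clec10a, Clec9a and Mgl2 had lower values in both Flt3 KO arrays, by 0.094 to 0.31, and Clec4a2 overlapped between genotypes. The genotypes did not overlap for 8 of the 10 lectins, against 47.2% of all genes: 4 were higher in Flt3 KO (21.9% of all genes) and 4 lower (25.3% of all genes). The threshold was passed by 3 of the 10, against 2.39% of all genes: Cd209e and Cd209d were higher (1.08% of all genes) and Clec12a was lower (1.31% of all genes). These counts come from the comparison in which the genes were chosen, so nothing is read from them. The median difference over the 10 was 0.0024, beside −0.0010 over all genes.

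**Figure D1:**
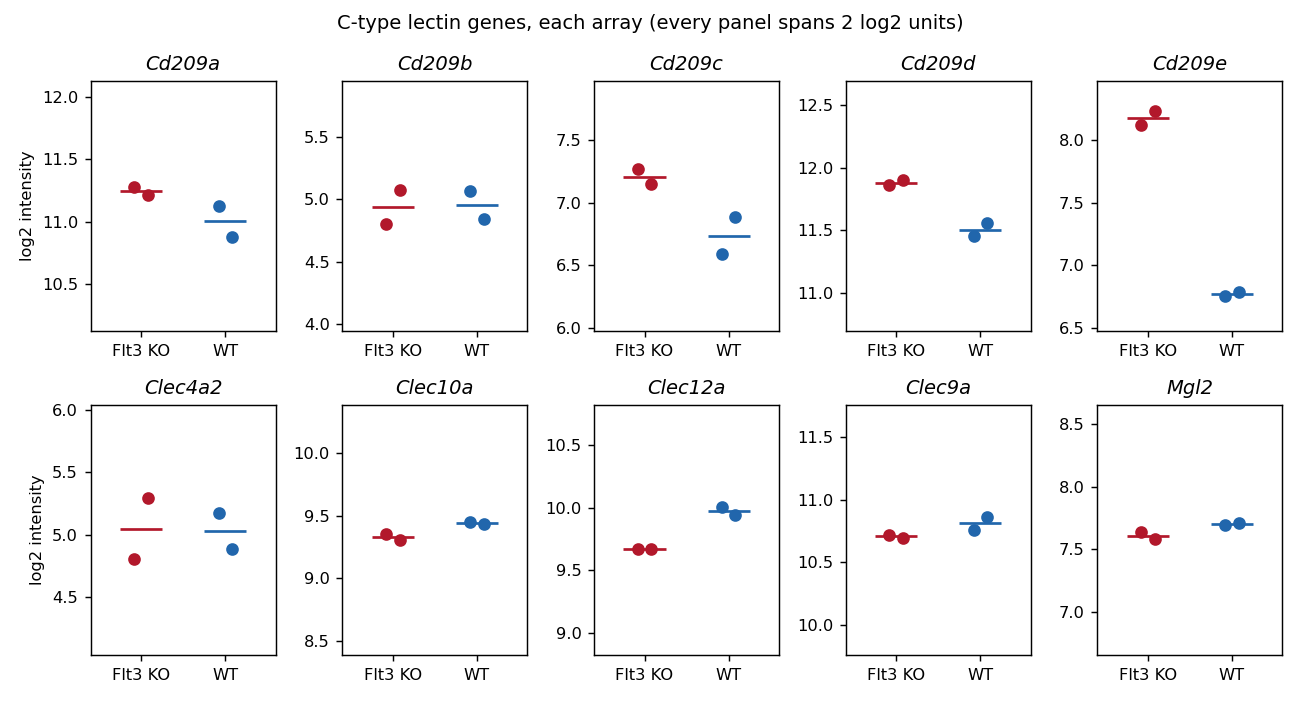
Log2 intensity of each lectin gene on each array, Flt3 KO in red on the left and WT in blue on the right of every panel, with the mean of 2 arrays as a line. All panels span 2 log2 units; the gap is widest for Cd209e, where Flt3 KO arrays read 8.12 and 8.24 and WT arrays 6.75 and 6.79.

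Cd209e (Entrez gene 170780), one of the DC-SIGN-related receptors expanded in the mouse, had deposited intensities of 278 and 301 in the Flt3 KO arrays, against 108 and 111 in the WT arrays. On the log2 scale it averaged 8.18 ± 0.082 in Flt3 KO and 6.77 ± 0.025 in WT (mean ± SD, n = 2 each). The difference was 1.41 (SE 0.075), or 2.65-fold. Replicates of a genotype lay within 0.12 of each other, so the difference was 12.2 times the larger of the gaps within a genotype. It was the largest difference of the 10 in either direction.

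Cd209d (Entrez gene 170779), whose product is a mannose-binding receptor also known as SIGNR3, read 11.86 and 11.90 in the Flt3 KO arrays and 11.46 and 11.56 in the WT arrays. Its difference was 0.37 (SE 0.048), or 1.30-fold, and the lowest Flt3 KO value lay clear of the highest WT value. Cd209c (Entrez gene 170776) read 7.27 and 7.15 in Flt3 KO and 6.59 and 6.88 in WT. Its difference of 0.47 (SE 0.11) had the looser WT pair, which lay 0.30 apart, and it was 0.33 without WT replicate 1 and 0.62 without WT replicate 2.

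Cd209a (Entrez gene 170786), the mouse gene named DC-SIGN after the human receptor of dendritic cells, read 11.28 and 11.22 in Flt3 KO and 11.13 and 10.88 in WT. The WT arrays differed by as much as the genotypes did: the WT gap was 0.24 and the difference 0.24 (SE 0.078). It was 0.37 without WT replicate 1 and 0.12 without WT replicate 2. Cd209b (Entrez gene 69165), which encodes SIGNR1, the receptor of marginal zone macrophages that binds bacterial polysaccharide, read 4.80 and 5.07 in Flt3 KO and 5.07 and 4.84 in WT. These values lay below 5.89, the median over all genes, and overlapped; the difference was −0.015 (SE 0.13), with a sign that turned in 2 of the 4 fits with 1 array left out. The Cd209 genes are paralogs, the probe sequences were not analysed here, and signal shared between their probe sets cannot be told apart from signal of each gene.

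**Figure D2:**
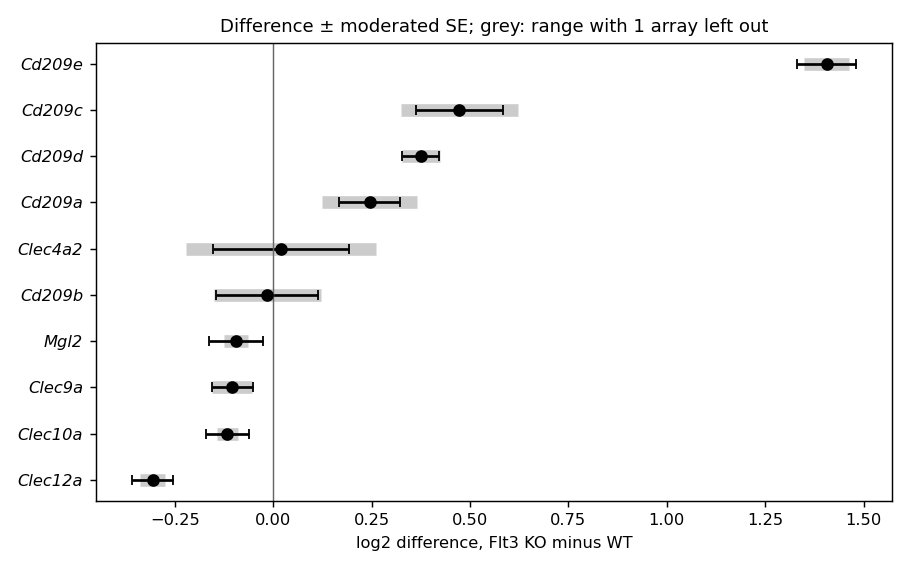
Log2 difference, Flt3 KO minus WT, of the 10 lectin genes as points with moderated SE as whiskers, ordered by difference, with the range over the 4 fits that leave out 1 array in grey. Cd209e stands at 1.41 and Clec12a at −0.31, and the grey ranges of Clec4a2 and Cd209b cross 0.

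Both galactose-type lectins were slightly lower in the Flt3 KO arrays. Clec10a (Entrez gene 17312; macrophage galactose-type lectin 1, CD301a) read 9.36 and 9.30 in Flt3 KO and 9.45 and 9.44 in WT, a difference of −0.12 (SE 0.055). Mgl2 (Entrez gene 216864; CD301b), its neighbour on chromosome 11, read 7.64 and 7.58 in Flt3 KO and 7.69 and 7.71 in WT, a difference of −0.094 (SE 0.068). The arrays of the genotypes did not overlap for either gene, but both differences were small: the Mgl2 difference was under 1.5 times its SE, and it was −0.13 with each array centred on its median and −0.049 with quantile normalization.

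Of the lectins with an inhibitory motif, Clec12a (Entrez gene 232413), which encodes MICL, a receptor that dampens responses to dying cells and urate crystals, read 9.67 and 9.67 in Flt3 KO and 10.01 and 9.94 in WT. The Flt3 KO arrays were nearly equal and both lay under the WT pair. The difference was −0.31 (SE 0.052), that is 1.24-fold lower in Flt3 KO. Clec4a2 (Entrez gene 26888), which encodes the inhibitory receptor DCIR, read 4.81 and 5.29 in Flt3 KO and 5.17 and 4.89 in WT. It lay below the median over all genes in every array, and its replicates differed by more (0.48 in Flt3 KO) than its genotypes (0.020, SE 0.17).

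Clec9a (Entrez gene 232414) encodes DNGR-1, the receptor for actin filaments exposed by dead cells, which is best known from type 1 conventional dendritic cells. It read 10.72 and 10.69 in the Flt3 KO arrays and 10.76 and 10.86 in the WT arrays. The difference was −0.10 (SE 0.052), and the nearest arrays of the genotypes were 0.041 apart, less than the WT gap of 0.10.

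The genes next to the Cd209 group did not pass the threshold. In gene order on chromosome 8, Fcer2a and Clec4g lie before Cd209a, and Cd209f and Cd209g after Cd209c. Clec4g, a lectin gene, read 6.76 and 6.97 in Flt3 KO and 7.31 and 7.21 in WT, a difference of −0.40 that did not pass (limma adjusted p = 0.094), and Fcer2a, the low-affinity IgE receptor, had −0.17 (adjusted p = 0.37). Cd209f and Cd209g were dim, with differences of −0.060 (adjusted p = 0.87) and 0.15 (adjusted p = 0.52). On chromosome 6, where Clec12a and Clec9a lie in the natural killer gene complex, Cd69 fell, Clec7a had a difference of 0.36 (adjusted p = 0.13), and the remaining neighbours shown, Clec2m, Clec12b, Clec1b and Clec1a, had differences of −0.15 to 0.16 and did not pass. These neighbours were chosen by position after the values of the lectins were known.

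**Figure D3:**
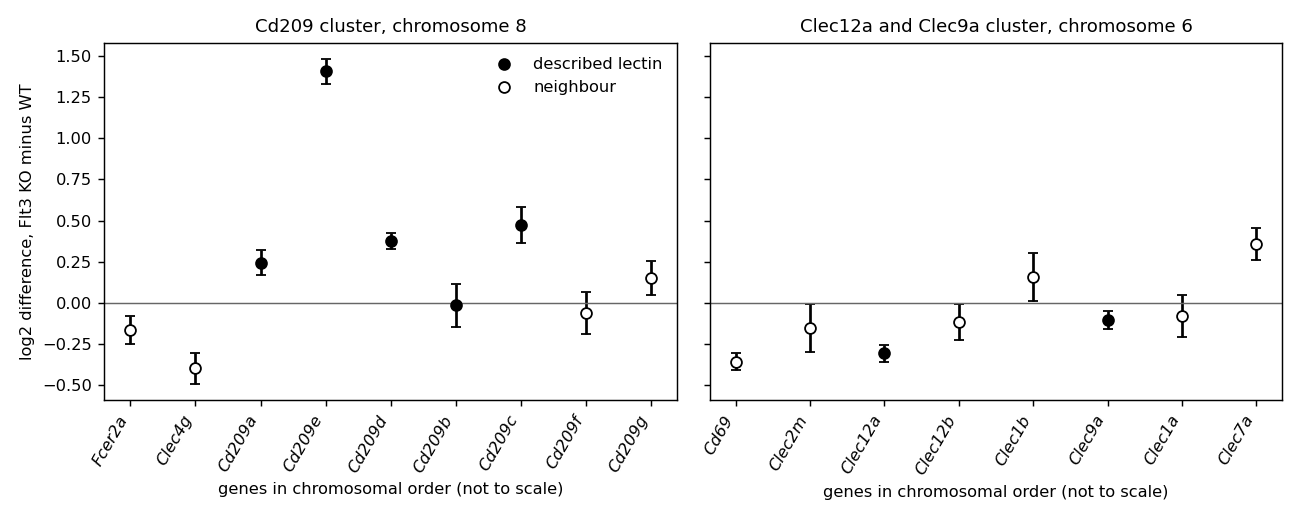
Log2 difference, Flt3 KO minus WT, with moderated SE for genes in chromosomal order around the Cd209 genes (left) and around Clec12a and Clec9a (right); filled points are the described lectins and open points their neighbours. Cd209a, Cd209e, Cd209d and Cd209c have positive values, with Cd209b at −0.015 between Cd209d and Cd209c. Beside them stand Clec4g at −0.40 on one side, and Cd209f at −0.060 and Cd209g at 0.15 on the other.

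Other C-type lectin receptors moved both ways. Of 36 measured receptors outside the 10, 1 rose (against 1.08% of all genes), 2 fell (against 1.31%) and 33 did not pass. The median difference was −0.00094. Thbd, which encodes thrombomodulin, rose by 0.71 (SE 0.10, limma adjusted p = 0.020), with 7.56 and 7.28 in Flt3 KO and 6.72 and 6.70 in WT. Cd72, an inhibitory receptor best known from B cells, fell by 0.42 (SE 0.065, adjusted p = 0.025), with 8.43 and 8.42 in Flt3 KO and 8.79 and 8.90 in WT. Cd69, an early activation antigen, fell by 0.36 (SE 0.053, adjusted p = 0.021), with 10.96 and 10.92 in Flt3 KO and 11.36 and 11.24 in WT. Only 11 of the 36 lay above the median over all genes. None of these 3 calls was kept with any 1 of the 4 arrays left out.

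**Figure D4:**
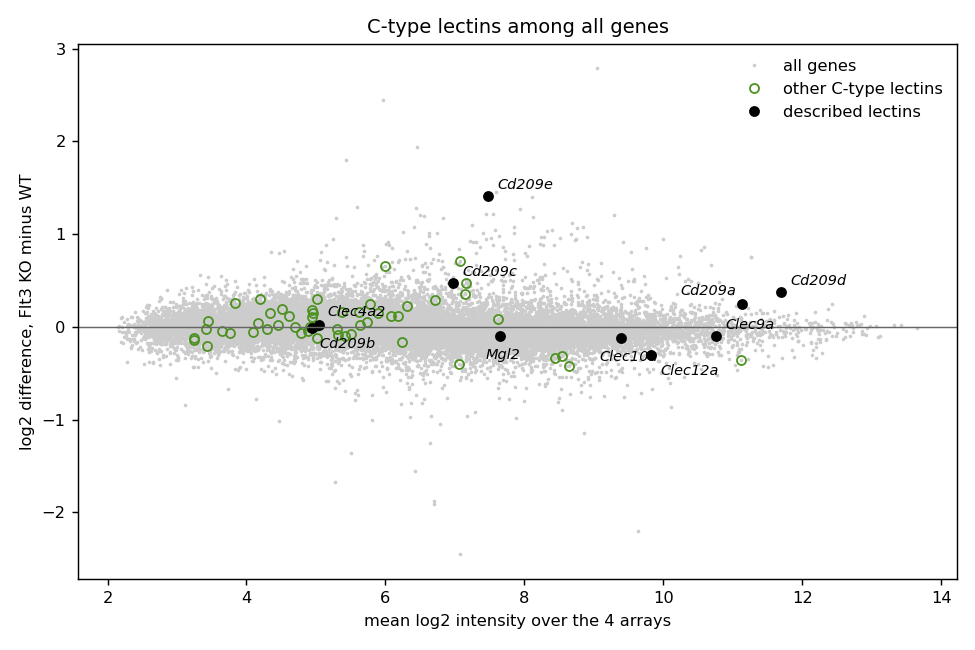
Log2 difference, Flt3 KO minus WT, against the mean log2 intensity over the 4 arrays, for all genes (grey), other C-type lectins (green rings) and the 10 described lectins (black, named). Cd209e lies at 1.41, and most other C-type lectins lie at low intensity near 0.

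None of 16 soluble C-type lectins and collectins passed in limma, and 3 had an unadjusted p under 0.05, against 3405 of all 19938 genes. The lowest p-values were those of Clec18a (0.22, adjusted p = 0.23), Mbl1, a mannose-binding lectin gene (0.25, adjusted p = 0.24), and Clec3b, the tetranectin gene (0.66, adjusted p = 0.25), whose Flt3 KO arrays were far apart at 6.72 and 5.92.

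Among 14 measured adaptors and kinases that carry the signal of these receptors, 1 passed, against 2.39% of all genes, and 7 had an unadjusted p under 0.05 in limma, against 3405 of all 19938 genes. Fyn, a Src-family kinase, fell by 0.32 (SE 0.041, limma adjusted p = 0.013), with 11.36 and 11.34 in Flt3 KO and 11.68 and 11.65 in WT. The other 13 did not pass, and the median was −0.028. The call of Fyn was lost with any 1 array left out. Of 6 inhibitory phosphatases and scaffolds none passed in limma, with 1 at an unadjusted p under 0.05: Ptpn11 had 0.17 (adjusted p = 0.19), Ksr1 0.23 (adjusted p = 0.30) and Ptpn6, the SHP-1 gene, −0.064 (adjusted p = 0.51).

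Of 18 measured genes that Syk and Card9 signalling can induce, 2 rose (against 1.08% of all genes), 1 fell (against 1.31%) and 15 did not pass. Positive differences were found for 13 of the 18, against 9896 of all 19938 genes. The arrays of the genotypes did not overlap for 11 that were higher (21.9% of all genes) and 3 that were lower (25.3%) in Flt3 KO. The median was 0.15, and with 1 array left out it ranged from 0.049 (without WT replicate 2) to 0.22 (without WT replicate 1). Relative to the WT mean, the list median was 0.12 in WT replicate 1 and −0.12 in WT replicate 2. With each array centred on its median, 2 rose and 3 fell. Il1b, the interleukin-1β gene, rose by 0.97 (SE 0.12, limma adjusted p = 0.011), with 9.24 and 9.54 in Flt3 KO and 8.54 and 8.30 in WT. Il12a, the p35 chain of interleukin-12, rose by 0.56 (SE 0.11, adjusted p = 0.049). Ccl3, a chemokine gene, fell by 0.75 (SE 0.11, adjusted p = 0.018), with 8.68 and 8.84 in Flt3 KO and 9.66 and 9.36 in WT. All 3 calls were lost with any 1 array left out, and that of Il12a also with the replicate number as a block (adjusted p = 0.063).

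Markers of other cells moved in the same arrays. The shares of all genes beside each count here are 1.08% for genes that rose and 1.31% for genes that fell. Of 11 measured markers of monocytes and macrophages 4 rose (Ccr2, Cx3cr1, Cd14 and Lyz2). The other 7 did not pass, among them Fcgr1 at −0.044 (limma adjusted p = 0.87) and Adgre1 at 0.23 (adjusted p = 0.60). The summed intensity of the 11 was 3918 and 5228 in the Flt3 KO arrays against 3115 and 2834 in the WT arrays. Csf1r, a gene of this list, read 9.07 and 9.54 in Flt3 KO and 8.94 and 8.63 in WT, and C1qa 9.42 and 10.05 in Flt3 KO and 9.32 and 9.15 in WT. For 10 markers of marginal zone and red pulp macrophages, none past the threshold in limma, the sums were 2057 and 3036 in Flt3 KO and 2290.45 and 1828 in WT. For 10 markers of type 2 conventional dendritic cells, 3 of which rose (Tmem176a, Tmem176b and Cd300a) and 1 of which fell (Ltb), they were 6546 and 6823 in Flt3 KO and 5964 and 5719.9 in WT. Of 10 markers of type 1 conventional dendritic cells 1 fell (Cxcr3) and 9 did not pass, and the median difference of this list was −0.0069. Of 9 measured pDC markers 3 fell (Cox6a2, Ccr9 and Ly6d), and their sums were 27866 and 28281 in Flt3 KO and 31485 and 31362 in WT. No marker is at 0 on these arrays, and the part of these cell types in the lectin differences was not tested. In a sorted bulk sample, fewer cells of a type and less RNA per cell cannot be told apart.

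Relative to the WT mean, the median of the 5 Cd209 genes, which in both Flt3 KO arrays is the value of Cd209d, was 0.35 in Flt3 KO replicate 1 and 0.40 in Flt3 KO replicate 2. In the same order, that of the type 2 conventional dendritic cell list was 0.25 and 0.37, that of the monocyte and macrophage list 0.28 and 0.72, that of the marginal zone and red pulp list 0.024 and 0.52, and that of the pDC list −0.21 and −0.17. Among single Cd209 genes the Flt3 KO arrays were between 0.042 (Cd209d) and 0.27 (Cd209b) apart. With Flt3 KO replicate 1 left out and with Flt3 KO replicate 2 left out, the difference was 1.46 and 1.35 for Cd209e, 0.40 and 0.35 for Cd209d, 0.42 and 0.53 for Cd209c, and 0.21 and 0.28 for Cd209a.

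**Figure D5:**
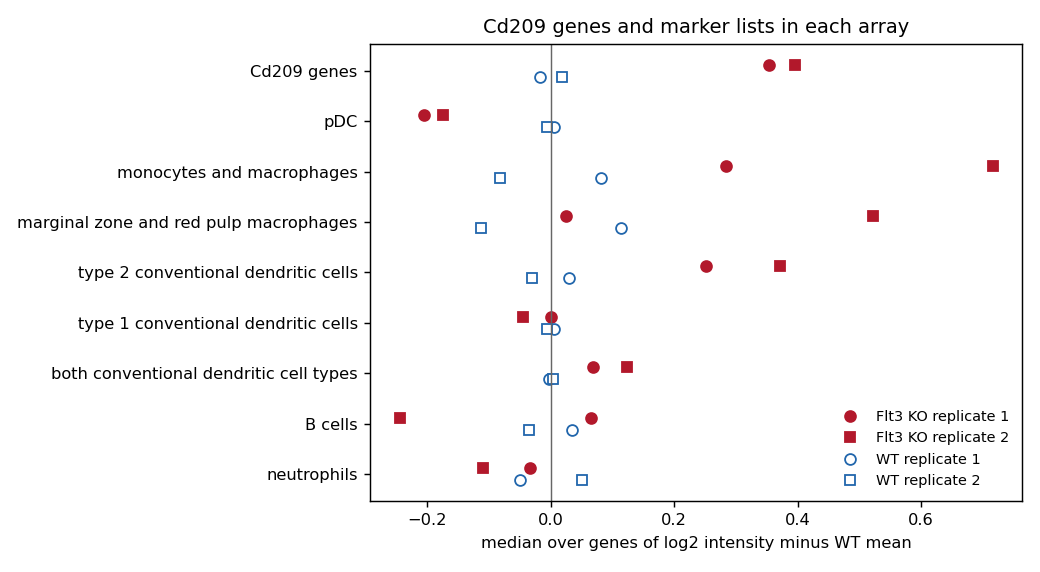
Median over genes of log2 intensity minus the WT mean, for the 5 Cd209 genes and 8 lists of cell type markers, with Flt3 KO arrays as filled red and WT arrays as open blue symbols. The Flt3 KO arrays lie at 0.35 and 0.40 for the Cd209 genes, at 0.25 and 0.37 for type 2 conventional dendritic cells and at 0.28 and 0.72 for monocytes and macrophages.

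By the root mean square distance between log2 profiles centred on their own mean over the 4 arrays, the genes closest to Cd209e were Il13ra1, Gprc5c, Emilin2, Anxa1 and Tppp3, at distances of 0.11 to 0.14 and with differences of 1.19 to 1.45. Those closest to Cd209c were Prag1, Klk8, Cd24a, Msln and Pdlim5, at 0.031 to 0.053 and with differences of 0.44 to 0.52. With 4 arrays this likeness is a description.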

How the data were processed

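The authors deposited 1 intensity for each of 30177 probe sets on 4 arrays, as positive linear values. How background, summarisation and normalization were handled is not given in the sources used here. There are no detection calls, and the number of arrays limits precision. In the platform annotation 21789 probe sets had 1 gene symbol, 1621 several and 6767 none. The brightest probe set by mean was kept for each of 19938 genes. Deposited intensities were converted to log2 with no constant added and no filter, and Flt3 KO was compared with WT in limma 3.58.1 (R 4.3.3; lmFit, eBayes with an intensity trend, no covariate), adjusted by Benjamini-Hochberg over all genes with a threshold of 0.05. A difference is Flt3 KO minus WT with limma's moderated SE. The smallest p of an exact two-sided permutation test at this size is 0.3333. The fit was tested on simulated arrays.

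The 10 lectins and all lists were chosen with earlier results of these data known. Named genes are the 10 lectins, Flt3, up to 6 called genes of each list by adjusted p (otherwise the 3 with the lowest p), up to 3 called and the 3 brightest of each marker list, and the 5 closest profiles of the 2 lectins with the largest differences. Neighbours by position were added afterwards. The called markers Lyz2 and Cd300a, and Fcgr1 and Adgre1, which were not called, were also added outside this rule. Not all of the brightest markers are printed. Some genes of the lists are not reported here. Markers of B cells (7 measured, median −0.090), neutrophils (8, −0.076) and both conventional dendritic cell types (8 without Flt3, 0.095; Nectin1 rose, and Dpp4 rose with a limma adjusted p of 0.049 that was 0.069 with centred arrays and 0.083 with the replicate block) were also summarised. Replicate numbers do not pair the samples by label. RefSeq promoter sequences are of build GRCm38.p6.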

Additional observations from a re-analysis of the deposited data

How the results depend on the processing

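In 12 alternative settings, Cd209a, Cd209c, Cd209d, Cd209e, Clec10a, Clec12a, Clec9a and Mgl2 kept the sign of their difference. Cd209b and Clec4a2, both dim, did not. Most settings could not have turned a sign. Changing the variance model, the genes fitted, the block or the averaging of probe sets leaves each lectin's difference as it was. Leaving out 1 array or adding a constant cannot turn it where the genotypes do not overlap, as for the genes that kept it. Only median centring and quantile normalization could have turned the sign of those genes. The Cd209e difference ranged from 1.35 to 1.46 with 1 array left out and from 1.29 to 1.44 otherwise. Over all genes 108 passed without the intensity trend and 724 of the 9969 genes at or above the median intensity passed when the others were left out; with 1 array left out the count was 0 to 54. For the other C-type lectin receptors the count was 0 without the trend, 5 with dim genes left out and 0 with any 1 array left out. For adaptors and kinases it was 2 with arrays centred on their medians, 0 without the trend and 0 with any 1 array left out. For Syk and Card9 outputs it was 5 with centred arrays, with robust variance and with dim genes left out, and 0 without the trend or any 1 array. The lists of soluble lectins and of phosphatases stayed at 0 in all 12. The causes were not tested. The median of the 10 lectins ranged from −0.076 to 0.17 with 1 array left out. With the replicate number as a block 375 genes passed, and the block kept 2 of the 3 lectins past the threshold, Clec12a being lost. Without the trend 1 lectin passed, Cd209e, and with dim genes left out 4 did, Cd209c being added. The lectins were chosen in this comparison, so nothing is read from the lectin counts in any setting. Samples of the same number did not deviate together (correlation −0.017 across genes). Whether they share a batch is not stated in the labels, and this correlation cannot decide it.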

Other observations

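Of the lectin genes outside the 10, Mrc1, Clec4n and Clec7a were picked with their values in view. Mrc1, the macrophage mannose receptor gene, read 7.29 and 8.04 in the Flt3 KO arrays and 7.84 and 7.31 in the WT arrays, so that replicates lay farther apart than the genotype means, with a difference of 0.088 (limma adjusted p = 0.91). It was high in Flt3 KO replicate 2 and WT replicate 1, the array of each genotype in which the medians of both macrophage marker lists were also higher. Clec4n, which encodes the fungal receptor Dectin-2, read 7.24 and 7.55 in Flt3 KO and 7.16 and 6.68 in WT, a difference of 0.47 (adjusted p = 0.21), and Clec7a, which encodes Dectin-1, read 7.23 and 7.41 in Flt3 KO and 7.05 and 6.87 in WT, a difference of 0.36 (adjusted p = 0.13). Mrc1, Clec4n and Clec7a were each highest in Flt3 KO replicate 2 and, within WT, higher in replicate 1. With 2 arrays per genotype this order is a description, and the part of macrophages in it was not tested.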
